A study of Mus musculus with 25 samples.

Results

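The acute phase protein genes described here are 10 genes of the mouse liver: Saa1, Saa2, Saa3, Lcn2, Orm1, Orm2, Hp, Hpx, Itih4 and Fgb. They were chosen by symbol, as every locus whose short name holds one of them. In the 20-week data they lay at 10 of 46499 loci. In the 39-week data they lay at 9 of 46052 loci, because Orm1 and Orm2 shared one locus there and Saa3 shared one with its neighbour Saa4. Both merged loci are written Orm1/Orm2 and Saa3/Saa4 below, and their values cannot be split between the genes.

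RNA was sequenced from whole liver of 25 C57BL/6 mice, either wild type or labelled heterozygous for Ncoa5, which encodes nuclear receptor coactivator 5. At 20 weeks of age there were 4 untreated wild type mice and 4 untreated mice labelled Ncoa5+/-. The 39-week mice fell into 4 groups. Of the wild type, 4 were untreated and 3 received metformin, and of those labelled Ncoa5+/-, 5 were untreated and 5 received it. Metformin, an oral drug for type 2 diabetes, was given in drinking water at about 250 mg per kg per day from week 8 for 31 weeks. All mice shared the strain, the standard diet and the housing, and the labels say nothing of an infection or an injected inflammatory agent. Levels are the authors' FPKM, which are fragments per kilobase of transcript and per unit of sequencing, so they can be compared between genes as well as between mice of one cohort. The cohorts were prepared by different facilities and scaled apart, so no level is compared between them.

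Acute phase proteins are plasma proteins whose output by hepatocytes shifts during inflammation, infection or tissue injury. Interleukin-6 acting through STAT3, and interleukin-1 and tumour necrosis factor acting through NF-kB and C/EBP factors, are the classical inducers. The serum amyloid A proteins (Saa1, Saa2, Saa3) are among the most inducible genes of the mouse liver, whereas haptoglobin, hemopexin and fibrinogen are abundant at rest and rise by less.

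The labels were first set against the targeted gene and the libraries against each other. Ncoa5 ranged from 2.90 to 5.03 FPKM in the 20-week mice labelled Ncoa5+/- and from 3.11 to 5.30 FPKM in the wild type mice. These groups overlapped and did not differ by a two-sided exact permutation test (p = 0.8), so the heterozygous mice are called "labelled Ncoa5+/-" throughout. In the 39-week untreated mice the exact permutation p was 0.349. The sum of FPKM per library was 695645 to 1613500 at 20 weeks and 857291 to 2089980 at 39 weeks, and the 50 highest loci took 43.0% to 78.7% and 43.1% to 78.3% of it. Read depth is unknown, but the steps between low values put the deepest library at 3.46 times the shallowest at 20 weeks and 1.54 times at 39 weeks. Albumin (Alb), which every hepatocyte makes, is listed at 0 in every library, so an exact 0 in these files can be a failed estimate. The 6 other hepatocyte markers without such zeros summed to 2666 to 4007 FPKM in wild type and 4069 to 4288 FPKM in labelled mice at 20 weeks, and to 2577 to 4788 FPKM at 39 weeks.

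The sequences just upstream of 4 members whose level in a single 20-week mouse stood far above the wild type mean are shown, since these stretches are where factors of the inducing pathway are known to bind in such genes. Saa1, Saa2 and Saa3 lie together on chromosome 7 (GRCm38), at 46740497-46742980 on the minus strand, 46751790-46754313 on the plus strand and 46711998-46715700 on the minus strand. Orm1 (63344560-63348163) and Orm2 (63362449-63365878) are neighbours on the plus strand of chromosome 4. All are protein-coding genes, and Saa1 and Saa2 have 4 exons each. The transcripts of Saa1 and Saa2 are 94.4% identical over 606 aligned bases, with a longest shared run of 76 bases, and those of Orm1 and Orm2 are 91.0% identical over 775 bases. Reads could thus be shared within each pair, and the split between partners is uncertain. Saa1 shares 64.7% of 570 aligned bases with the longest Saa3 transcript, a model of 2 exons and 2200 bases. Other Saa3 transcripts were not aligned. The windows below come from RefSeq, GRCm38.p6, which held 8 of the 10 members, and each runs 5′ to 3′ from base -250 to base -51 before the RefSeq start on the gene's own strand. Capitals mark TTGCNNAA on either strand, a core pattern bound by C/EBP factors.
Saa1 (chr7:46743031-46743230, minus strand): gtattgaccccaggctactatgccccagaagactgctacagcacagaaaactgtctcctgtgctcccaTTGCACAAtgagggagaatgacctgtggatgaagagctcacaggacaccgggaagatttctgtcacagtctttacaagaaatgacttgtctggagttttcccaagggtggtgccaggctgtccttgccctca
Saa2 (chr7:46751583-46751782, plus strand): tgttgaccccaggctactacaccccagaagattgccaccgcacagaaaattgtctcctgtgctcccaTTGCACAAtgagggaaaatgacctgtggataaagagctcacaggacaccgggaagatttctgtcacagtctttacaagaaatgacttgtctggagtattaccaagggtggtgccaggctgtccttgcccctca
Saa3 (chr7:46715727-46715926, minus strand): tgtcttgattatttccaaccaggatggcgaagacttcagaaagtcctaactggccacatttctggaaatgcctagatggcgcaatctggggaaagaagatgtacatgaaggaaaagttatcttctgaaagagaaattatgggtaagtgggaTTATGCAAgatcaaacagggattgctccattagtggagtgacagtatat
Orm2 (chr4:63362199-63362398, plus strand): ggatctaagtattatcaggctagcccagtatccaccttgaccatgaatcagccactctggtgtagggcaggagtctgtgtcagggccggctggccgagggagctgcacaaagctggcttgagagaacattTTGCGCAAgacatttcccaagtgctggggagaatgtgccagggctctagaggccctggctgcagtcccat
The whole 250-base windows of Saa1 and Saa2 are 95.6% identical, and the match TTGCACAA lies at bases -182 to -175 of Saa1 and -183 to -176 of Saa2. Saa3 has TTATGCAA at -99 to -92, which is the pattern read on the other strand, and Orm2 has TTGCGCAA at -120 to -113. Of the 8 members with a window, 7 hold TTGCNNAA within 250 bases (all but Itih4), against 9.56% of 32851 windows of the same length. The STAT pattern TTCNNNGAA was found in 2 of 8 members (Itih4 and Fgb) against 7.02% of windows. The kappa-B pattern was found in 0 of 8 against 0.356%. It was searched in a single narrow form, which only 117 of 32851 windows held. So rare a pattern is likely to be missing from any 8 windows, so whether the members lack kappa-B sites was not tested. All 3 patterns were searched on both strands and chosen after the sequences had been seen, and a match describes letters, not a bound site.

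At 20 weeks 9 of the 10 acute phase genes had a ratio of highest to lowest mouse over 1.5 times larger among the mice labelled Ncoa5+/- than among the wild type mice. The exception was Orm1, with ratios of 1.60 and 1.55. One mouse, replicate 3 of the labelled group, had the highest level of the cohort for 10 of 10 members, and replicate 4 of the same group had the second highest for 10 of 10. Both mice lay above every wild type mouse for all 10 genes. Replicate 1 was above every wild type mouse for 8 of 10 members, replicate 2 for 2 of 10, and replicate 2 was below every wild type mouse for 2. The same ratios and ranks were not counted over all loci, so whether the members are unusual in them was not tested.

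The serum amyloid A genes spanned the widest range. Saa1, the major circulating form, was at 33.1, 45.0, 44.6 and 24.1 FPKM in wild type replicates 1 to 4 and at 56.9, 20.1, 5697 and 549 FPKM in the labelled replicates 1 to 4. Replicate 3 was thus 155 times and replicate 4 14.9 times the wild type mean, while replicate 2 was below all wild type mice. Saa2, its near-identical neighbour, was at 14.4, 17.4, 15.7 and 8.67 FPKM in wild type and at 25.2, 7.40, 3613 and 167 FPKM in the labelled mice, so replicate 3 was 257 times the wild type mean. Saa3, a form made in many cell types including macrophages and fat cells, was at 8.05, 9.61, 5.37 and 3.17 FPKM in wild type and at 15.8, 8.09, 425 and 21.4 FPKM in the labelled mice. For each of the 3 genes, 3 of 4 labelled mice lay above every wild type mouse and the groups overlapped through replicate 2.

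Lcn2 encodes lipocalin 2, which binds bacterial iron carriers and is made by both hepatocytes and neutrophils. It was at 1.62, 2.06, 1.72 and 0.978 FPKM in wild type and at 3.15, 1.15, 86.4 and 8.66 FPKM in the labelled mice. Replicate 3 again stood apart, at 54.2 times the wild type mean, and replicate 2 lay within the wild type range. Orm1 and Orm2 encode orosomucoid, or alpha-1-acid glycoprotein, a carrier of drugs and lipids. Orm1 was at 1040.1, 1099.7, 850.3 and 709.5 FPKM in wild type and at 1218, 1204, 1922 and 1522 FPKM in the labelled mice. Orm2 was at 10.4, 11.2, 9.60 and 5.07 FPKM in wild type and at 15.9, 14.8, 187 and 16.2 FPKM in the labelled mice. These were the only members whose groups did not overlap, with all 4 labelled mice above all 4 wild type mice.

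The abundant plasma proteins had the same 2 mice on top over a narrower range. Hp encodes haptoglobin, which captures free haemoglobin, and was at 2020.4, 2071, 1798 and 1506 FPKM in wild type and at 2301, 1823, 8578 and 4253 FPKM in the labelled mice. Hpx encodes hemopexin, which captures free haem, and was at 2685, 2748, 2238 and 2149 FPKM in wild type and at 3499.9, 2645, 7498 and 3907 FPKM in the labelled mice. Replicate 3 reached 4.64 times the wild type mean for Hp and 3.05 times for Hpx. Itih4, an inter-alpha-trypsin inhibitor heavy chain, was at 534.1, 706, 453 and 383 FPKM in wild type and at 443, 659, 1363 and 953 FPKM in the labelled mice. Fgb, the beta chain of the clotting protein fibrinogen, was at 985, 1078, 934 and 1166 FPKM in wild type and at 988, 1037, 2265 and 1357 FPKM in the labelled mice. Over the 8 mice the highest level was 489 times the lowest for Saa2 and 2.42 times for Fgb.

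The genotype comparison at 20 weeks was tested with limma on log2(FPKM + 1) over the 10963 loci whose mean reached 1 FPKM, and all 10 members passed that filter. All 10 had a log2 fold change above 0 (labelled Ncoa5+/- over wild type), against 54.4% of all loci, and their median was 1.29 against 0.03 for all loci. The number of members with an adjusted p under 0.05 by limma was 0 of 10, and that of all loci was 0 as well (0%). At an unadjusted limma p under 0.05 there were 2 members, Orm1 and Hpx, against 820 loci (7.48%). The Orm1 difference was 0.66 ± 0.22 (SE) on the log2 scale (limma adjusted p = 0.603) and the Hpx difference 0.73 ± 0.31 (limma adjusted p = 0.603). For Orm1 and for Orm2 the two-sided exact permutation p was 0.0286, the smallest that 4 against 4 mice can give. Loci whose labelled mice all lay above all wild type mice made up 2.96% of those tested.

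The fold changes of the most variable members were large and poorly fixed. Saa2 had a log2 difference of 2.88 with a 95% interval of -0.74 to 6.50, Saa1 2.76 (-0.65 to 6.18), Saa3 2.29 (-0.11 to 4.69), Lcn2 1.86 (-0.35 to 4.07) and Orm2 1.65 (-0.07 to 3.36). The intervals of these 5 genes included 0, as did those of Hp at 0.94, Itih4 at 0.63 and Fgb at 0.36. Without replicate 3 of the labelled group, the difference became 1.26 for Saa1, 1.19 for Saa2, 1.09 for Saa3, 0.78 for Lcn2 and 0.77 for Orm2, and 0.51 for Hp, 0.44 for Hpx, 0.37 for Itih4 and 0.11 for Fgb. Orm1 moved least, to 0.52. All 10 stayed above 0 in every fit that left out 1 mouse. The FPKM sum of that library (1028940), the share of its 50 highest loci (59.8%) and its relative depth lay within the range of the other libraries.

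**Figure D1:**
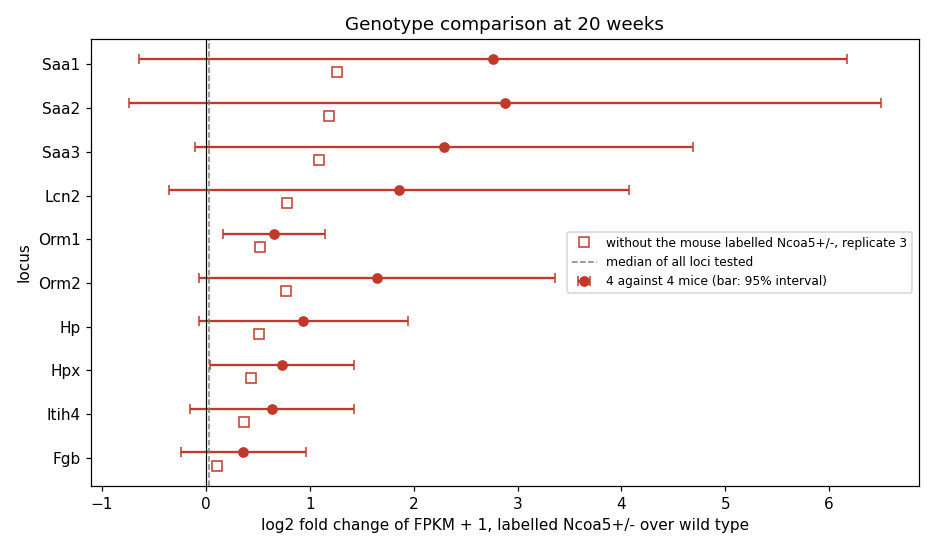
Log2 fold change of FPKM + 1 at 20 weeks (x axis, labelled Ncoa5+/- over wild type) for each member, with filled circles and 95% interval bars for 4 against 4 mice, open squares without labelled replicate 3, and a dashed line at the median of all loci. All 20 symbols lie above 0, and the square lies left of the circle at every locus.

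The authors' deposited table of the same comparison marks 5 of 10 as significant, namely Saa1, Saa2, Saa3, Lcn2 and Orm2, each with q = 0.00413, against 1.29% of its 13975 tested loci marked as higher. The log2 fold change in the authors' deposited table, turned here from wild type over labelled to labelled over wild type, was 5.42 for Saa1, 6.05 for Saa2, 4.16 for Saa3, 3.94 for Lcn2 and 2.68 for Orm2. These set the group's FPKM (1525 against 35.6 for Saa1) side by side, whereas the limma values above are differences of mean log2 levels. In the authors' deposited table, Orm1 and Hp had q = 0.0802, Hpx q = 0.301, Itih4 q = 0.673 and Fgb q = 0.804. The 5 genes the authors' deposited table marks are those whose value in labelled replicate 3 was at least 20.6 times the wild type mean.

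A pair of the wild type libraries at 20 weeks, replicates 3 and 4, carries another title prefix than the other 6. The labels do not say what it means, and only wild type mice carry it, so it is partly confounded with the genotype label. Replicate 3 had the highest relative depth of the cohort (3.34, with labelled replicate 1 set to 1). Replicate 4 had the highest FPKM sum (1613500) and the highest share in its 50 highest loci (78.7%). Without this pair all 10 members stayed above 0 and 0 of 10 were called by limma. The difference was then 2.65 for Saa1 and 1.72 for Lcn2, and Orm1 moved from 0.66 to 0.43.

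Of 23 other genes that inflammation raises in the liver, 18 were tested by limma at 20 weeks. All 18 had a fold change above 0, with a median of 0.57 against 0.03 for all loci, and 0 of 18 were called. The 3 with the smallest limma p were Cp (ceruloplasmin, a copper carrier; log2 difference 0.79), Fgg (the fibrinogen gamma chain; 0.60) and Apcs (serum amyloid P; 0.69), each with an adjusted limma p of 0.603. Fgg was at 1326 to 1854 FPKM in wild type and at 1822, 2012, 4007 and 2468 FPKM in the labelled replicates 1 to 4. Among proteins that inflammation lowers, Ahsg and Ttr were listed at 0 in all wild type mice and Alb, Apoa1 and the locus of Trf in all 20-week mice, so 5 of 10 were tested. Of these, 5 had a fold change above 0 and 0 were called.

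The inducing pathway was described from lists of its parts. Il6, the ligand, was at 0.12, 0.084, 0.049 and 0.31 FPKM in the labelled replicates 1 to 4, and in wild type it was listed at 0 in replicates 1 and 2 and was at 0.031 and 0.020 FPKM in the others. All 4 labelled mice thus lay above all wild type mice. These levels are near the floor and below the 1 FPKM filter, so Il6 was not tested, and an exact 0 can be a failed estimate. The share of loci at such low levels that separate in the same way was not counted. Of the IL-6 family ligands 1 of 7 loci was tested. The receptor genes Il6ra, Il6st and Lifr had differences of -0.07, -0.12 and 0.00, and none was called. Stat3, the main transducer, was at 14.9 to 19.6 FPKM in wild type, at 48.6 in labelled replicate 3 and at 25.1 in replicate 4, with a log2 difference of 0.47 (limma adjusted p = 0.615). Its feedback inhibitor Socs3 was highest in replicate 4 (22.1 FPKM), then in replicate 3 (11.3), and at 4.13 to 9.10 in wild type. Cish, listed with Socs3 among the feedback inhibitors, was at 1.74 FPKM in replicate 3, below every wild type mouse. The groups overlapped for Cish, with labelled mice at up to 21.7 FPKM and wild type mice at up to 36.4. Whether Cish follows STAT3 in these mice was not tested. Il1r1, the interleukin-1 receptor, was at 25.9 FPKM in replicate 3 and at 6.15 to 9.34 in wild type. Of the NF-kB genes, 5 of 5 tested had a fold change above 0, led by Nfkbiz (0.68) and Nfkb2 (0.64), each with a limma adjusted p of 0.603. The number of pathway genes called by limma at 20 weeks was 0 in every list.

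Markers of other cell types were summed per mouse, since whole liver holds more than hepatocytes, and fewer cells of a type cannot be told apart from less RNA per cell. The 9 neutrophil markers without zeros in a whole group summed to 2.38 to 3.46 FPKM in wild type. In the labelled mice they summed to 2.18 to 18.5 FPKM, highest in replicate 3, so the groups overlapped. S100a9 was at 9.17 FPKM in replicate 3 and 8.58 in replicate 4, against 0.86 to 1.76 in wild type. The rise of the sum lay mainly in S100a9 and S100a8, the latter at 7.50 FPKM in replicate 3. The other markers stayed under 1 FPKM in every 20-week mouse, and Ltf had a lower mean in labelled mice (0.024 FPKM) than in wild type (0.152 FPKM). The part of S100a8 and S100a9 expressing cells in the Lcn2 and Saa3 levels was not tested. The 12 macrophage and Kupffer cell markers summed to 80.8 to 212 FPKM in wild type and to 68.9 to 120 FPKM in the labelled mice. All 12 had a fold change below 0, with a median of -0.59 and 0 called. The 5 erythroid markers summed to 222 to 260 FPKM in wild type and to 263 to 346 FPKM in the labelled mice. Like the hepatocyte sums given above they did not overlap between the groups, and both were highest in another labelled mouse than replicate 3. Their part in the members' levels was not tested. The 8 lymphocyte markers summed to 4.13 FPKM or less in every 20-week mouse.

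At 39 weeks the loci varied less, and the mouse that stood apart was a wild type one. Orm2 and Saa3 alone could not be followed there, since their loci are merged with Orm1 and Saa4. In 20-week wild type mice Orm2 had a mean of 9.08 FPKM beside 925 for Orm1, and Saa3 had 6.55 beside 113 for Saa4. Untreated wild type replicate 4 had the highest level of the 17 mice for 5 of 9 loci. Metformin-treated wild type replicate 3 was the highest for 2 and the second highest for 5. These ranks were not counted over all loci either. The ratio of the highest to the lowest mouse was 24.5 for Saa2, 17.3 for Saa1, 8.11 for Lcn2, 2.30 for Saa3/Saa4 and 1.77 for Itih4.

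Saa1 was at 122, 85.9, 108 and 1022 FPKM in untreated wild type and at 107, 141, 126, 59.2 and 201 FPKM in the untreated mice labelled Ncoa5+/-. Under metformin it was at 77.9, 205 and 511 FPKM in wild type and at 75.9, 288, 120.3, 83.3 and 98.8 FPKM in the labelled mice. All 4 groups overlapped, and the means fell in the order untreated wild type, treated wild type, treated labelled and untreated labelled mice without any neighbours differing beyond their spread. The medians fell in another order: 205 FPKM in treated wild type, 126 in untreated labelled, 115 in untreated wild type and 98.8 in treated labelled mice. Saa2 was at 61.0, 43.4, 54.9 and 608 FPKM in untreated wild type and at 37.2, 58.3, 55.8, 27.1 and 82.4 FPKM in untreated labelled mice. Under metformin Saa2 was at 24.8, 56.5 and 136 FPKM in wild type and at 26.2, 80.7, 28.1, 38.4 and 46.1 FPKM in labelled mice. The high mice were the same as for Saa1, namely replicate 4 of untreated and replicate 3 of treated wild type.

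The Saa3/Saa4 locus was at 163, 233, 233 and 331 FPKM in untreated wild type, at 235, 191, 173, 179 and 207 in untreated labelled mice, at 156, 179.7 and 247 in treated wild type and at 146, 158, 176, 173 and 144 in treated labelled mice. Saa4 is a form also made without inflammation, and it stands above among the other genes that inflammation raises. At 20 weeks it was at 93.4 to 129 FPKM in wild type and at 114 to 385 FPKM in labelled mice. In 20-week wild type mice Saa4 was the more abundant, with a mean of 113 FPKM against 6.55 for Saa3. The differences of the locus given below therefore cannot be assigned to Saa3. Lcn2 was at 4.46, 6.14, 3.24 and 18.5 FPKM in untreated wild type and at 5.01, 3.44, 4.57, 2.53 and 7.37 in untreated labelled mice. Under metformin Lcn2 was at 4.09, 4.20 and 7.44 FPKM in wild type and at 2.29, 2.45, 2.72, 3.18 and 5.20 in labelled mice, of which 4 of 5 lay below every untreated wild type mouse. The other 5 loci stayed within 2.23 times between the lowest and the highest of 17 mice. Hp ranged from 1357 to 2532 FPKM, Hpx from 1909 to 3838, Fgb from 654 to 1332 and Orm1/Orm2 from 387 to 863 FPKM.

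**Figure D2:**
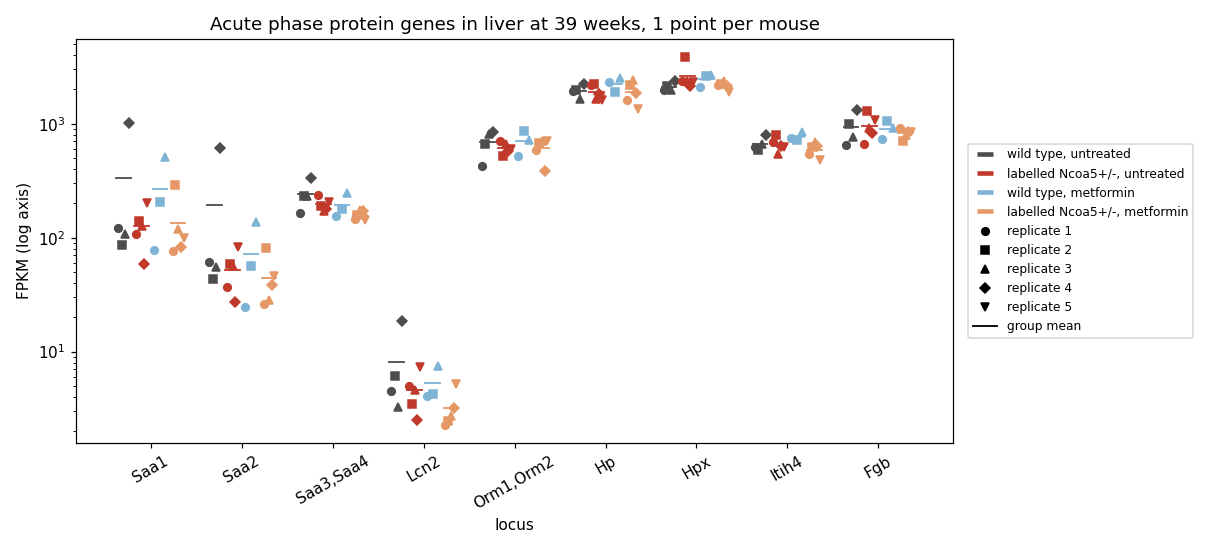
FPKM on a log axis for the 9 loci at 39 weeks, with 1 point per mouse (marker shape gives the replicate), 4 groups by colour and a line at each group mean. The grey diamond, untreated wild type replicate 4, stands above the other points for Saa1 (1022 FPKM), Saa2 (608 FPKM) and Lcn2 (18.5 FPKM). At the abundant loci the groups overlap, except treated labelled against treated wild type mice for Itih4.

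The genotype comparison of untreated mice at 39 weeks covered 11441 loci, and all 9 member loci passed the filter. Of the 9, 2 had a fold change above 0 (44.5% of all loci), their median was -0.11, and 0 of 9 were called by limma, against 30 loci (0.262%). The number of members at an unadjusted limma p under 0.05 was 0 as well (5.62% of loci). The largest difference was that of Saa2, at -0.99 with a 95% interval of -2.40 to 0.43, followed by Saa1 at -0.65 (-2.09 to 0.80) and Lcn2 at -0.49 (-1.27 to 0.28). Hpx was at 0.27 (-0.03 to 0.57), or 0.12 without labelled replicate 2. Without untreated wild type replicate 4, Saa2 was at -0.11, Lcn2 at -0.04 and Saa1 turned to 0.17, and 6 of 9 loci lay above 0. It was 1 of 9 without untreated wild type replicate 1, without replicate 3 of that group or without labelled replicate 2, and 4 of 9 without labelled replicate 3.

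In metformin-treated mice, labelled Ncoa5+/- against wild type, 9 of 9 loci had a fold change below 0 and 0 of 9 one above 0 (47.7% of all loci), with a median of -0.28 against -0.01 for all loci. By limma 0 of 9 were called, against 18 loci (0.157%). Itih4 was at 753, 713 and 851 FPKM in the 3 treated wild type mice and at 541, 620.1, 685, 638 and 480.4 FPKM in the 5 treated labelled mice, so the groups did not overlap. Its log2 difference was -0.39 ± 0.14 (limma adjusted p = 0.884), and the two-sided exact permutation p was 0.0357, the smallest that 5 against 3 mice can give. It was the 1 member at an unadjusted limma p under 0.05, against 4.35% of loci, and loci without overlap in that direction made up 1.72%. Saa1 was at -0.78 (-2.35 to 0.78) and Lcn2 at -0.58 (-1.43 to 0.26), or -0.34 without treated wild type replicate 3. The 3 wild type mice limit this comparison: without replicate 3 of that group 1 of 9 loci lay above 0 and the Saa1 difference shrank to -0.11.

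Metformin within the mice labelled Ncoa5+/- gave 0 of 9 loci above 0 (50% of all loci) and 9 below, with a median of -0.18 against 0.00 for all loci. By limma 0 members and 0 loci (0%) were called, and 0 members against 8.83% of loci had an unadjusted limma p under 0.05. The Saa3/Saa4 locus was at -0.30 (-0.64 to 0.04), Hpx at -0.23 (-0.52 to 0.05) and Lcn2 at -0.40 (-1.13 to 0.33), while Saa1 was at -0.01 (-1.37 to 1.35). For Saa3/Saa4 the two-sided exact permutation p was 0.0238, not adjusted over the 9 loci, and 3 of 5 treated mice lay below every untreated one. Without untreated labelled replicate 2 Hpx was at -0.09, and without replicate 5 of that group Lcn2 was at -0.24. Each of 7 mice, when left out, brought 1 or 2 loci above 0. These were untreated labelled replicates 1, 2, 3 and 5 and treated labelled replicates 1, 4 and 5. The authors' deposited table of treated against untreated labelled mice marks 0 of 9 loci as significant, against 1.22% of its 14159 loci, and its smallest q is 0.602, for Lcn2.

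Metformin within wild type mice gave 5 of 9 loci above 0 (47.4% of all loci), a median of 0.05 and 0 of 9 called by limma (0% of loci), and 0 members against 9.35% of loci had an unadjusted limma p under 0.05. Saa2 was at -0.74 (-2.36 to 0.87) and Saa1 at 0.13 (-1.51 to 1.77). Without untreated wild type replicate 4 these became 0.13 and 0.95, and 8 of 9 loci lay above 0. Without untreated wild type replicate 1 it was 3 of 9, and without treated replicate 3 Saa1 was at -0.54. Itih4 and Hpx were each at 0.22, with intervals of -0.08 to 0.52 and -0.13 to 0.56.

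Treated mice labelled Ncoa5+/- were also set against untreated wild type mice. This comparison shares its controls with others above. Here 1 of 9 loci lay above 0 (46.4% of all loci), with a median of -0.17, and 0 of 9 were called by limma against 30 loci (0.262%). The Saa3/Saa4 locus was at -0.55 ± 0.17 (limma adjusted p = 0.203) and Lcn2 at -0.90 ± 0.37 (limma adjusted p = 0.345), and these were the 2 members at an unadjusted limma p under 0.05, against 12.1% of loci. The two-sided exact permutation p of Saa3/Saa4 was 0.0476, not adjusted over the 9 loci. Without untreated wild type replicate 4 they became -0.38 and -0.44, and 4 of 9 loci lay above 0. Without treated labelled replicate 3 it was 0 of 9, and without replicate 4 or 5 of that group 2 of 9. Saa2 was at -1.25 (-2.67 to 0.16), or -0.38 without that wild type mouse.

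The interaction of genotype and metformin tested whether the drug's difference itself differed between the genotype labels. By limma 0 of 9 members and 0 loci (0%) were called. Hpx had an interaction of -0.45 ± 0.21 (limma adjusted p = 0.991), the 1 member at an unadjusted limma p under 0.05 against 2.79% of loci. It was at 0.22 in wild type and -0.23 in labelled mice, and untreated labelled replicate 2, at 3838 FPKM, was the highest Hpx value, without which the interaction was -0.30. Itih4 had an interaction of -0.37 ± 0.18 (limma adjusted p = 0.991).

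**Figure D3:**
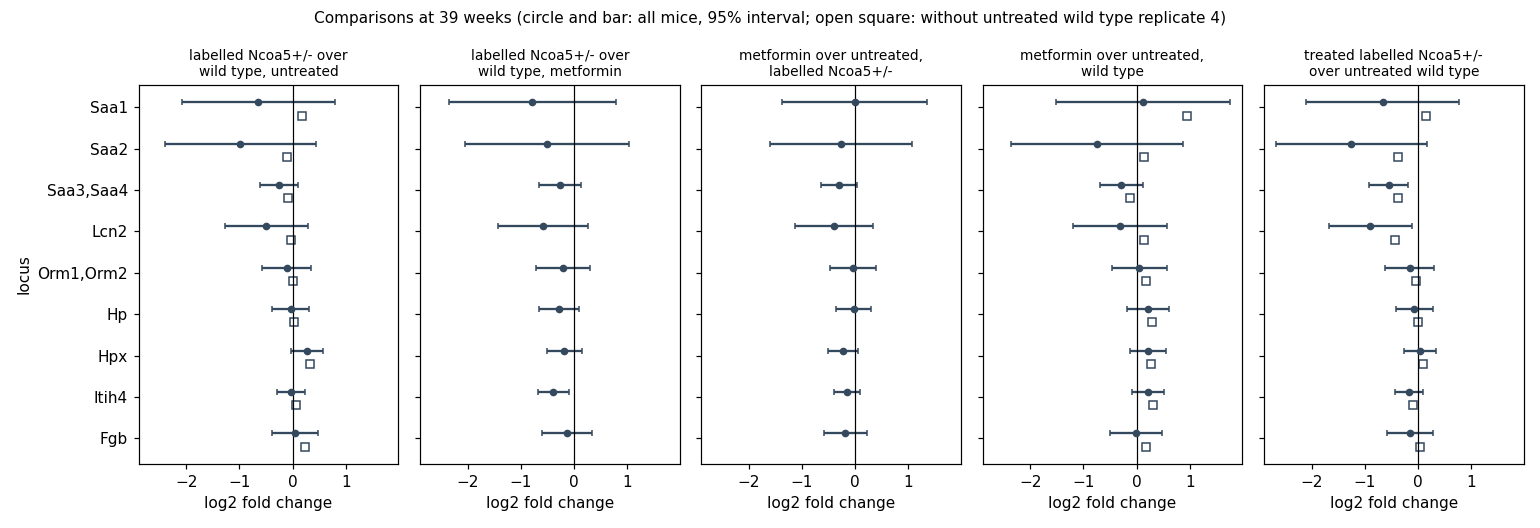
Log2 fold changes of FPKM + 1 for the 9 loci in the 5 comparisons at 39 weeks, with circles and 95% interval bars from all mice and open squares without untreated wild type replicate 4 where that mouse enters. Most intervals span 0, and the squares of Saa1 and Saa2 lie to the right of their circles in all 3 panels that have squares.

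The pathway lists at 39 weeks were counted in the same way. Of 19 other acute phase loci tested, which include Saa3/Saa4, 6 lay above 0 in the genotype comparison of untreated mice and 4 in the metformin comparison of labelled mice, and 0 were called by limma in either. Mt2, a metallothionein that binds zinc and copper, had the smallest p in the former (log2 difference -1.57, limma adjusted p = 0.825). Lbp, the lipopolysaccharide-binding protein, was at -0.32 (limma adjusted p = 0.910). Myd88, the adaptor of the interleukin-1 receptor, was at -0.35 (limma adjusted p = 0.549). Under metformin in labelled mice Jak2, a kinase that activates STATs, was at 0.16 and Tnfrsf1a, a tumour necrosis factor receptor, at -0.24, with limma adjusted p of 0.514 and 0.526. In treated labelled against untreated wild type mice, 4 of the 19 other acute phase loci lay above 0. There 8 of 19, and 4 of 6 NF-kB loci, were lower at an unadjusted limma p under 0.05, against 12.1% of loci in either direction. In these 2 lists 0 were higher at that p and 0 were called. This comparison includes untreated wild type replicate 4. Socs3 was at 33.7 FPKM in untreated wild type replicate 2, where Saa1 was at 85.9 FPKM, and at 2.70 FPKM in replicate 4, where Saa1 was at 1022 FPKM. Stat3 was at 41.2 FPKM in that replicate 4 and at 41.4 FPKM in untreated labelled replicate 5, the highest of the cohort. The 9 neutrophil markers summed to 4.50 to 21.6 FPKM over the 39-week mice, with the highest sum in untreated wild type replicate 2.

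The members moved together to different degrees in the cohorts. At 20 weeks all 45 pairs of members had a Pearson r above 0 on log2(FPKM + 1) over 8 mice, with a median of 0.919. The median fell to 0.646 when each pair was taken without the 2 mice farthest from the median of its first gene in data order. The mice left out could thus differ between pairs. Without them 11 of 45 pairs had r below 0, among them all 9 pairs with Fgb (r = -0.51 with Saa1 and -0.53 with Hp), so the relation of Fgb to the others rests on those mice. Saa1 and Saa2 had r = 0.996 and Spearman rho = 1 (exact permutation p of rho adjusted over 45 pairs 0.000744), and r = 0.980 without the 2 farthest mice. At 39 weeks 35 of 36 pairs had r above 0 over 17 mice, with a median of 0.421 and 0.213 without the 2 farthest, where 6 of 36 pairs had r below 0. Saa1 and Saa2 had r = 0.935 (permutation p adjusted over 36 pairs 0.00036) and rho = 0.909, and r = 0.819 without the 2 farthest. Itih4 and Hp had r = 0.827 (permutation adjusted p = 0.00144) and rho = 0.757, and r = 0.698 without them. Lcn2 and Saa1 had r = 0.713 (permutation adjusted p = 0.022) and rho = 0.463, and r = 0.162 without the 2 farthest, so that relation rests on those mice. Of the 36 pairs, 9 had an adjusted permutation p under 0.05 for r and 2 for rho.

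**Figure D4:**
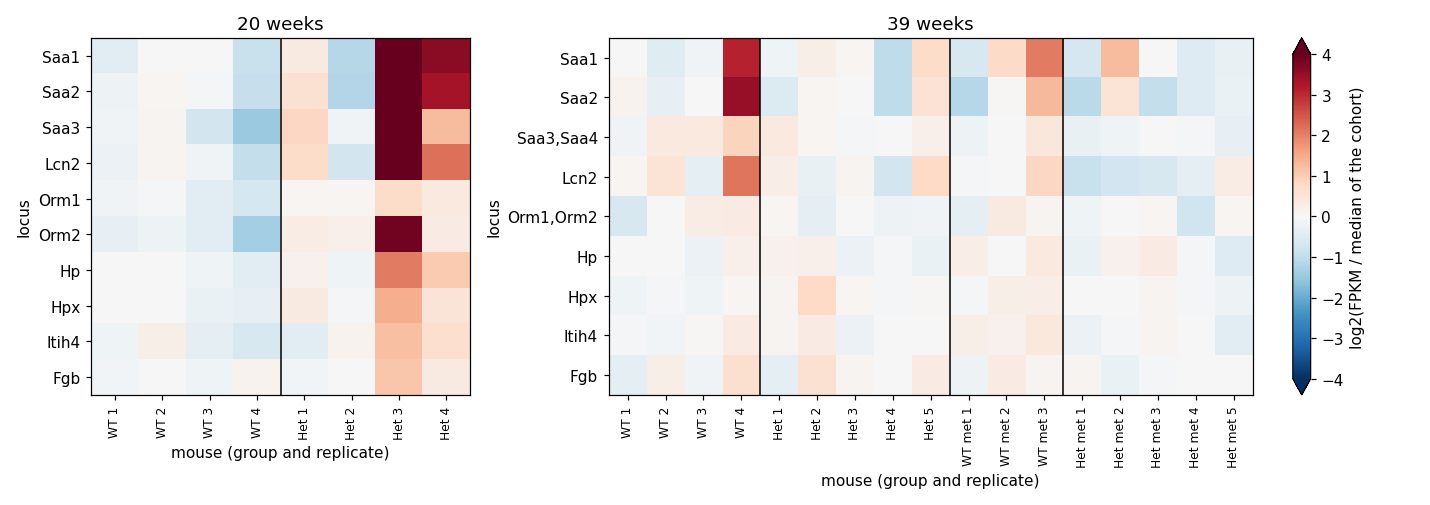
Log2 ratio of each mouse's FPKM to the cohort median for each locus (colour, red above and blue below, saturated beyond 4) at 20 weeks (left, 8 mice) and 39 weeks (right, 17 mice). WT is wild type, Het is labelled Ncoa5+/-, met is metformin, and numbers are replicates. The 20-week Het 3 and Het 4 columns are red at every locus, and at 39 weeks the WT 4 column is red for Saa1, Saa2 and Lcn2.

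The 5 loci whose profile was most like the mean of the members were found among 8421 loci measured in both cohorts, ranked by the lower of both correlations. They were Lrg1 (r = 0.892 at 20 weeks and 0.856 at 39 weeks), Lbp (0.895 and 0.845), Serpina10 (0.935 and 0.820), Lman2l (0.876 and 0.793) and Cyp3a13 (0.902 and 0.759). These r are descriptions over 8 and 17 mice that share the mice apart. Lrg1, a secreted leucine-rich glycoprotein, was at 633 and 325 FPKM in the 20-week labelled replicates 3 and 4 against 123 to 192 FPKM in wild type. At 39 weeks Lrg1 was at 488 FPKM in untreated wild type replicate 4 and at 180.2 to 297 FPKM in the other 16 mice.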

How the data were processed

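Liver RNA of 25 mice was sequenced, the 20-week libraries on an Illumina HiSeq2500 and the 39-week libraries on a HiSeq4000. Per the submitters' processing notes the authors used Trimmomatic 0.33, TopHat2, Cufflinks and Cuffnorm with GRCm38.p5. The deposited values are FPKM per locus and mouse, scaled by Cuffnorm within a cohort. The authors' deposited comparison tables give log2 fold changes with p-values and q-values. Groups were taken from the labels, which do not say whether mice of a group shared a litter. The p-values set group differences against the spread between these mice and treat the mice as independent.

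The members and gene lists were chosen with earlier results of these data known. Each cohort was fitted alone with limma 3.58.1 in R 4.3.3 (eBayes with trend) on log2(FPKM + 1), over loci whose mean reached 1 FPKM, with all groups of the cohort in one fit. Fold changes are on that scale, which understates the change of low genes. Loci listed at 0 throughout one group, but detected in all mice of another whose mean reached 1 FPKM, were left out as failed estimates (14 loci at 20 weeks and 11 at 39 weeks). p-values were adjusted by the Benjamini-Hochberg method over all loci, with a threshold of 0.05. Single members were tested with two-sided exact permutation tests (scipy 1.17.1), and correlations with exact tests at 20 weeks and 100000 permutations at 39 weeks. The fit was tested on simulated data. Named genes were all members, Ncoa5, at most 3 genes per pathway list by limma p, marker sums, and the 5 loci most like the mean z-score of the members. The exact tests of Saa3/Saa4 and individual values of Il6, Cish, Il1r1, S100a8, S100a9, Ltf, Stat3, Socs3, Fgg, Lbp and Lrg1 were picked after they had been seen. Alternatives covered the pseudocount, the filter, the scaling, the fit and each mouse. Gene models come from GENCODE vM21 (GRCm38).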

Additional observations from a re-analysis of the deposited data

Results flagged for a closer look

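Of 47 groups of 4 or 5 mice tested by Dixon's ratio, 9 held a mouse whose gap to its nearest neighbour took most of the group's range, measured on FPKM, and chance flags about 1 group in 20 where values are normally distributed. At 20 weeks 5 of these came from replicate 3 of the mice labelled Ncoa5+/-: Saa1 at 5697 FPKM, Saa2 at 3613 FPKM, Saa3 at 425 FPKM, Lcn2 at 86.4 FPKM and Orm2 at 187 FPKM. At 39 weeks untreated wild type replicate 4 was far from its group for Saa1 (1022 FPKM) and Saa2 (608 FPKM). Saa1 in metformin-treated labelled replicate 2 (288 FPKM) and Hpx in untreated labelled replicate 2 (3838 FPKM) made up the rest. On log2(FPKM + 1), a scale tried after seeing the data, 4 of 47 groups held such a mouse: Orm2 in 20-week labelled replicate 3, Saa1 and Saa2 in untreated wild type replicate 4 and Hpx in untreated labelled replicate 2. The members of a group are not independent of each other, since 4 mice gave all 9. No member had groups without overlap in opposite directions among 18 pairs of contrasts at 39 weeks.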

How the results depend on the processing

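Of 64 member fold changes, 24 turned sign under at least 1 alternative, all among the 54 at 39 weeks, and 0 of 1251 alternative member fits passed the limma threshold (smallest adjusted p 0.0717). At 20 weeks 10 of 10 members lay above 0 and 0 were called under every alternative. Saa1 in the untreated genotype comparison ranged from -1.01 to 0.17 over the mice left out, and in the wild type metformin comparison from -0.54 to 0.95 (also -0.07, -0.24 and -0.13 without untreated wild type replicates 1, 2 and 3). Saa2 in the latter ranged from -1.35 to 0.13. Saa1 in the labelled metformin comparison ranged from -0.34 to 0.18, and was 0.071 without the libraries above 70%. Those that turned were 5 of 9 in the untreated genotype, wild type metformin, treated labelled against untreated wild type and interaction comparisons, 3 of 9 for metformin in labelled mice and 1 of 9 in the treated genotype comparison. The cause was not tested. Over the mice left out, the count of loci above 0 of 9 ran from 1 to 6 in the untreated genotype comparison, 0 to 1 in the treated one, 0 to 2 for metformin in labelled mice, 3 to 8 in wild type and 0 to 4 for treated labelled against untreated wild type mice. Without libraries whose 50 highest loci took over 70% these counts were 4 for the untreated genotype comparison, 2 for metformin in labelled mice and 2 for treated labelled against untreated wild type mice, and with quantile normalization the last was 0.

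All loci called by limma, over the mice left out, numbered 0 to 4 at 20 weeks, 18 to 27 and 4 to 19 for the genotype comparisons at 39 weeks, 0 to 1 for metformin in wild type, 15 to 76 for treated labelled against untreated wild type mice and 0 to 1 for the interaction. With failed estimates kept at 0 they were 13 at 20 weeks, 31 for the treated genotype comparison, 4 and 2 for metformin in labelled and wild type mice and 5 for the interaction. At 20 weeks they were 4 without the library above 70% and 5 without the pair with another title prefix. With the compared groups alone the genotype comparisons gave 11 and 6, with a pseudocount of 5 the treated one gave 10, and without a filter metformin in wild type and the interaction gave 2 each. No paired analysis was possible because replicate numbers follow accession order and pair no mice. Depth is unknown for FPKM, and 3 to 5 mice per group limit the precision.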

Other observations

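The metallothionein genes Mt1 and Mt2, which bind zinc and copper and are known to be raised in inflammation, were picked after their values were seen. At 20 weeks Mt1 was at 2993 FPKM in labelled replicate 3 and 561 FPKM in replicate 4, and at 37.9 to 54.1 FPKM in the other 6 mice. Mt2 was at 2569 and 340.2 FPKM in those mice and at 4.98 to 9.24 FPKM in the other 6. At 39 weeks Mt2 was at 203 FPKM in untreated wild type replicate 2 and 130.4 FPKM in replicate 4, and at 7.35 to 33.1 FPKM in the other 15 mice. The first of these had Saa1 at 85.9 FPKM and the second at 1022 FPKM.

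The ratio of Saa1 to Saa2 was also looked at after the values were seen. In untreated 39-week mice it was 1.91 ± 0.15 (SD, n = 4) in wild type and 2.43 ± 0.27 (SD, n = 5) in mice labelled Ncoa5+/- (two-sided exact permutation p = 0.0159, the smallest these groups can give, or 0.0476 adjusted over 6 comparisons). It was 3.51 ± 0.33 (SD, n = 3) in treated wild type and 3.01 ± 0.92 (SD, n = 5) in treated labelled mice. Treated labelled against untreated wild type mice also gave an exact permutation p of 0.0159 (adjusted 0.0476). Metformin in wild type gave an exact permutation p of 0.0571 (adjusted 0.114), the smallest that 3 against 4 mice can give. Metformin in labelled mice gave an exact permutation p of 0.278 (adjusted 0.417). The genotype comparison of treated mice gave an exact permutation p of 0.393 (adjusted 0.471). At 20 weeks the ratio was 2.63 ± 0.25 (SD, n = 4) in wild type and 2.46 ± 0.72 (SD, n = 4) in labelled mice (exact permutation p = 0.629). Reads may be shared between these near-identical transcripts, and that part in the ratio was not tested.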
